A study of Homo sapiens with 6 samples.

Results

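The genes described here were 10 ABC transporter genes, ABCA1, ABCA2, ABCA3, ABCA7, ABCB1, ABCC1, ABCC2, ABCC3, ABCG1 and ABCG2, out of 20007 protein-coding genes in the annotation. A ChIP-seq peak was counted for a gene when it shared at least 1 bp with the gene body plus 5 kb on either side, a stretch called the window of the gene. ABCA7 was placed in the list because it carries one of the strongest benzoylation peaks, so this gene was chosen by the deposited fold of that Kbz peak, which is given as a description only. The data came from HepG2, an established line from a human liver tumour, in which histones carrying acetylated lysine (Kac) or benzoylated lysine (Kbz) were pulled down with pan antibodies that do not tell which histone or residue carried the mark. Control cells received no sodium benzoate (SB), and treated cells received 10 mM SB for 24 h. Each of the 6 groups, input, Kac and Kbz from control and from SB-treated cells, was 1 library, so no difference below could be set against replicate error. Peak lists of 3 libraries were used, control Kac (70326 peaks), SB Kac (63282 peaks) and SB Kbz (24308 peaks). The labels state that peak calling found none in the control Kbz library, and the inputs were not analysed here.

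ABC transporters are membrane proteins that bind and hydrolyse ATP to move a substrate across a membrane. Members of subfamily A and ABCG1 mainly move lipids, ABCA1 and ABCG1 being the exporters that load cholesterol and phospholipid onto lipoproteins, whereas ABCB1, the ABCC pumps and ABCG2 carry drugs and conjugated metabolites out of cells, in liver into bile or back into blood. Lysine acetylation of histones is known from active promoters and enhancers. Benzoylation is a bulkier, aromatic acylation of the same residue.

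A peak says where a library was enriched and not how much mark was present. The authors' fold, a linear ratio of read density in the peak over background, was used only inside its own list. It is given below with its percentile, which is the share of peaks of the same list ranked lower by fold. Sequencing depth is unknown, since peak lists carry no read totals, and a list from a deeper library would hold more peaks. Intervals are Wilson 95% intervals and cover counting error only.

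The sequences under the marks are shown first, with every CpG dinucleotide in capitals. The stretch at the centre of the strongest Kbz peak of ABCA7, chr19:1044836-1045135 on the plus strand of hg38, is shown because it lies inside the gene and away from its canonical start. It holds 134 bases of exon 12 and 166 bases of intron, has a GC content of 66.3% and contains 18 CpG. The others are the 250 bases upstream of the start from RefSeq (GRCh38.p14), written in the direction of the gene. They contrast the starts of ABCA7 and ABCA2, which lay under Kbz, with those of ABCA1 and ABCC2, which lay under Kac but not under Kbz. Of the 10 genes 7 matched this table, and ABCC1, ABCC3 and ABCG1 did not.
ABCA7, centre of the intragenic Kbz peak: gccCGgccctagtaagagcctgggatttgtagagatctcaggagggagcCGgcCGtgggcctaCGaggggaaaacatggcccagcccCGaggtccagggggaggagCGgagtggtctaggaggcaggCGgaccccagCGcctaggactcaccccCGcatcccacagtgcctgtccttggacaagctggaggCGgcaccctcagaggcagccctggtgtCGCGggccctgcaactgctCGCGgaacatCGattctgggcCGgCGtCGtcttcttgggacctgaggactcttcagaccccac
ABCA7, chr19:1039857-1040106, plus strand: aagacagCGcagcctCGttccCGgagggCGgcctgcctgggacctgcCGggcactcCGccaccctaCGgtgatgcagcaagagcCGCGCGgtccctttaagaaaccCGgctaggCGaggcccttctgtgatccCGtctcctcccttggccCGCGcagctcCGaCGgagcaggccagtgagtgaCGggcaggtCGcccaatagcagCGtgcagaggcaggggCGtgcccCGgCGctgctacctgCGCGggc
ABCA2, chr9:137028238-137028487, minus strand: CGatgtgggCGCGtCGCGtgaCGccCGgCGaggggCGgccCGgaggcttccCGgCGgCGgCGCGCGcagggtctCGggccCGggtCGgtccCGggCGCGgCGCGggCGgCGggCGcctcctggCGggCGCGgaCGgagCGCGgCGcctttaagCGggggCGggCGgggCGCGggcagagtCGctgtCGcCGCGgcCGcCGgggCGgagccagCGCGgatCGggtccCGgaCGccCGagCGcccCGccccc
ABCA1, chr9:104928156-104928405, minus strand: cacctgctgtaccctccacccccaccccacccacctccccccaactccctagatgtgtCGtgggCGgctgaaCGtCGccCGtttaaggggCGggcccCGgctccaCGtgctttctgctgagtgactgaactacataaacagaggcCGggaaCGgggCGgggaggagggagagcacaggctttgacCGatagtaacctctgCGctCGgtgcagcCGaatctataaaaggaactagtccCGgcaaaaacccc
ABCC2, chr10:99782390-99782639, plus strand: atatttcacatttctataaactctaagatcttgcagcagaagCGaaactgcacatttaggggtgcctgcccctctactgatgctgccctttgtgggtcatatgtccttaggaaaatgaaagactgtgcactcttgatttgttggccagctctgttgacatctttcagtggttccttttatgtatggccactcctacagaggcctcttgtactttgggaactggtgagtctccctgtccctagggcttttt

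These 250 bases held 54 CpG in ABCA2, 25 in ABCA7, 16 in ABCA1 and 1 in ABCC2. The other 3 matched genes had 38 (ABCA3), 32 (ABCG2) and 12 (ABCB1), against a median of 18 over 15344 protein-coding promoters. The 4 matched genes with Kbz over the start, ABCA2, ABCA3, ABCA7 and ABCG2, thus had more CpG than the 3 without it. Among all 15344 promoters, Kbz lay over the start of 12.5% (95% interval 11.6 to 13.5) of those with 0 to 9 CpG, the class of ABCC2. It lay over 63.9% (62.4 to 65.5) of those with 10 to 19 CpG, the class of ABCA1 and ABCB1. The share was 66.6% (65.2 to 68) with 20 to 29 CpG and 54.3% (52.4 to 56.2) with 30 or more. ABCC2 was therefore in the class where Kbz over the start was rare, whereas ABCA1 and ABCB1 were in a class where most starts carried it.

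Letters of 5 common promoter motifs were searched on both strands of the same 250 bases. GGGCGG, the GC box, was found in 4 of the 7 genes, 6 times in ABCA2, 3 times in ABCA1 and 1 time each in ABCA3 and ABCA7, and in 59.5% of all promoters. TATAAA was found in 2 genes, ABCA1 and ABCC2, and in 9.08% of all promoters. CCAAT was found in 2 genes, ABCA7 and ABCB1, and in 34.9% of all. AGGTCA, the nuclear receptor half-site, was found in ABCG2 (9.86% of all) and TGACNNNGC, the core of the antioxidant response element, in ABCA3 (11.6% of all). None of the 5 motifs was found in the 300 bases of the ABCA7 intragenic peak shown above. A match is a description of the letters and not of binding.

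All 10 genes had a Kac peak in the window in control cells and in SB-treated cells, and 9 of 10 had a Kbz peak. The exception was ABCA1, the cholesterol exporter mutated in Tangier disease. Over all 20007 protein-coding genes the shares with a peak in the window were 82.7% (Kac, control), 81.4% (Kac, SB) and 72.4% (Kbz, SB). The 10 genes are long, with a median of 83.8 kb against 27.5 kb, and among the 11634 genes of at least 20 kb the shares were 89.7%, 88.5% and 80.5%. The counts of the 10 genes therefore lay close to the background, and the presence of a mark in the window is not a result particular to them.

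Narrower definitions separated the genes more. Within 3 kb of a transcript start of the gene, 10 of 10 had control Kac (76.6% of all genes), 10 of 10 had SB Kac (75.7%) and 7 of 10 had SB Kbz (64.7%). The 3 genes without Kbz there were ABCA1, ABCB1 and ABCG1. Of all genes with SB Kac at the promoter, 14.9% had no Kbz there. Over the canonical start itself, the start of the transcript that Ensembl marks as canonical, control Kac lay in 8 of 10 genes (59.2% of all genes), SB Kac in 8 (60.4%) and SB Kbz in 5 (45.8%). The 5 with Kbz were ABCA2, ABCA3, ABCA7, ABCC1 and ABCG2. ABCC3 and ABCG1 had no mark over the canonical start in any list.

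**Figure D1:**
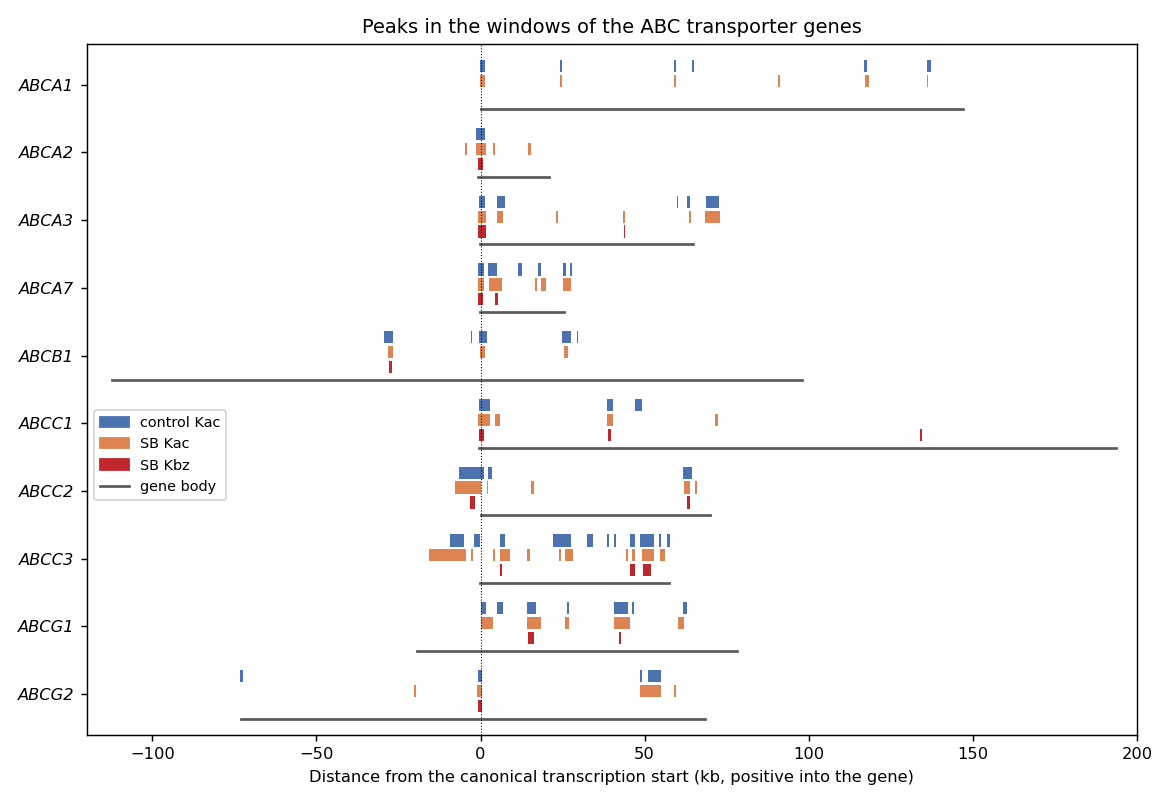
Peaks in the windows of the 10 genes, with distance from the canonical start in kb on the x axis (positive into the gene) and 1 gene per row. Bars are peaks of control Kac (blue), SB Kac (orange) and SB Kbz (red), the grey line is the gene body, and the 17 Kbz peaks sit at or near Kac peaks except in ABCC1 at 133935 bp; ABCA1 has no red bar.

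The windows of the 10 genes, 1130.2 kb in all, held 51 Kac peaks in control cells, 53 after SB and 17 Kbz peaks. Control Kac covered 7.71% of these bases, SB Kac 7.89% and SB Kbz 1.91%. The 5 lipid transporters were ABCA1, ABCA2, ABCA3, ABCA7 and ABCG1. They had 25 Kac peaks in control, 26 after SB and 7 of Kbz, which covered 8.84%, 10.60% and 2.34% of their windows. The 5 efflux pumps had 26, 27 and 10 peaks, which covered 7.07%, 6.36% and 1.66%. The Kbz share of the lipid transporters includes ABCA7, which was chosen by a Kbz peak and had Kbz over 7.18% of its window. Over the whole lists, the bases under a peak went from 130.4 Mb in control Kac to 115.4 Mb in SB Kac. By gene the covered share was higher in SB Kac in 4 of 5 lipid transporters (all but ABCA1) and in 2 of 5 pumps (ABCC1 and ABCG2). These are differences between 2 libraries with no replicate check, and the difference between the groups of genes was not tested.

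**Figure D2:**
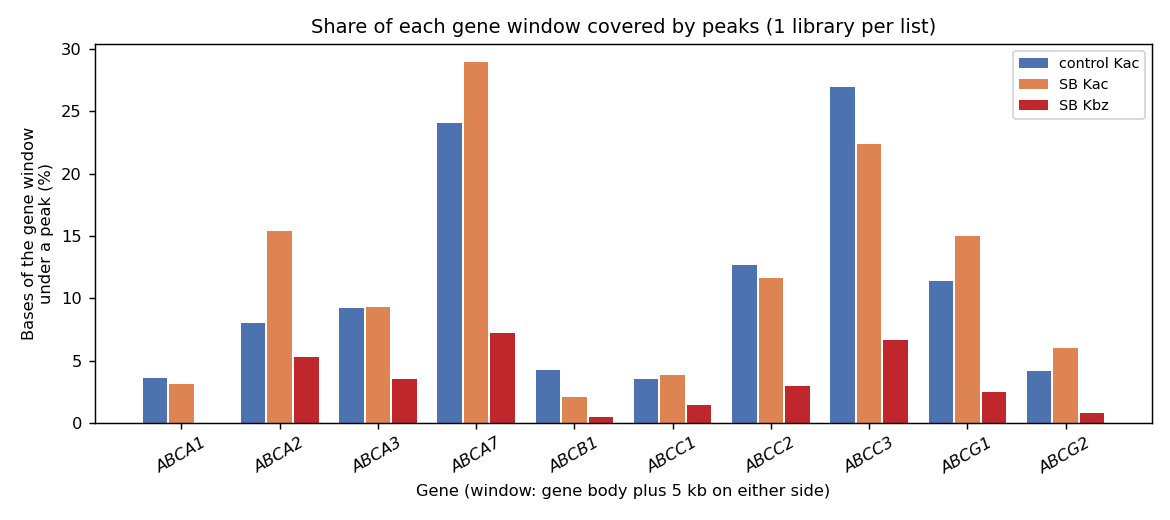
Share of bases of each gene window under a peak (y axis, percent) for control Kac, SB Kac and SB Kbz, 1 library each. ABCC3 and ABCA7 have the highest control Kac bars, 26.94% and 24.11%, ABCA7 has the highest Kbz bar, 7.18%, and ABCA1 has a Kbz value of 0.

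Among the lipid transporters, ABCA7 was the gene with most of its window marked. ABCA7 moves phospholipids and has been linked to phagocytosis and to the risk of Alzheimer disease. It lies on the plus strand of chromosome 19, with 25.6 kb of gene body. Its window held 6 Kac peaks in control, 5 after SB and 2 of Kbz, covering 24.11%, 28.97% and 7.18% of it. The first Kbz peak lay over the canonical start, from -700 to 795 bp, with a fold of 3.69 and a percentile of 42.3. The Kac peaks over the same start ranked higher in their lists, at percentiles of 82.8 in control and 75.9 after SB.

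The second Kbz peak of ABCA7, chr19:1044458-1045514, was 1057 bp long and began 4351 bp into the gene. Its fold of 13.31 was the second highest of all 24308 Kbz peaks, between 16.01 at rank 1 and 12.66 at rank 3, and its −log10 q was 45.68. This is the peak whose strength chose the gene. It covered all of exon 11 (168 bp) and exon 12 (230 bp) of the 47 exons of the canonical transcript, and the introns around them. The nearest annotated start of ABCA7 belongs to a transcript without a defined coding sequence and lay 18 bp beyond the peak, 5425 bp from the canonical start, the only one of 18 transcripts to start within 3 kb of the peak. Thus the peak counted as a promoter peak only through this minor transcript.

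The same place carried strong Kac, although less far up its lists. After SB, a Kac peak of 3785 bp (fold 6.78, rank 1186, percentile 98.1) contained the whole Kbz peak, which took up 27.9% of its length. In control cells a Kac peak of 2751 bp (fold 4.85, percentile 91.9) shared 720 bp with the place of the Kbz peak, or 68.1% of it. The control Kac peak ended 5070 bp from the start and the SB Kac peak 6485 bp from it. The whole 1057 bp had a GC content of 64.2% and 46.4 CpG per kb, near the 52.8 CpG per kb of the Kbz peak over the ABCA7 start. The remaining Kac peaks of ABCA7 were weaker, with percentiles from 12.3 to 66.8 in control and from 22.1 to 75.7 after SB, and the peaks at the end of the gene also covered the start of its neighbour ARHGAP45.

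**Figure D3:**
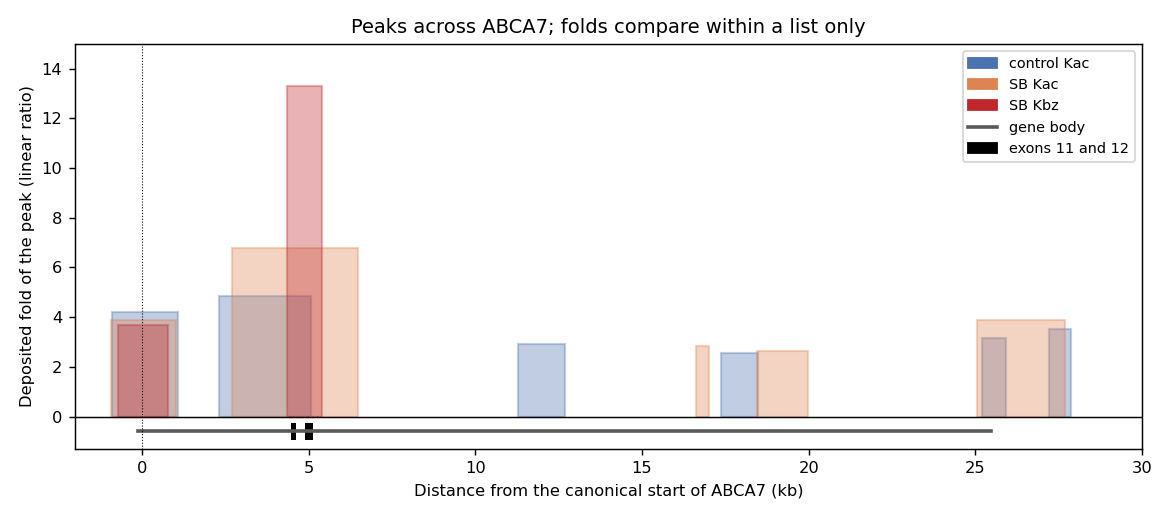
Peaks across ABCA7, with distance from the canonical start in kb on the x axis and the deposited fold, a linear ratio, on the y axis. Each box spans 1 peak of control Kac (blue), SB Kac (orange) or SB Kbz (red), heights compare within a list only, and the Kbz box over exons 11 and 12 (black) reaches 13.31 against 3.69 for the Kbz box over the start.

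ABCA1 was the gene with Kac and without Kbz. It lies on the minus strand of chromosome 9 with 147.2 kb of gene body. It had 6 Kac peaks in control and 6 after SB, and 5 in each list overlapped the other. The peak over the start had a fold of 3.30 (percentile 58.7) in control and 3.84 (75.3) after SB, and spanned nearly the same bases in both, from -109 to 1481 bp and from -125 to 1489 bp. The nearest Kbz peak lay 16298 bp outside the gene body. At the start of ABCA1 the surrounding 1 kb had 71 CpG, against a median of 66 over all genes.

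ABCA2 and ABCA3 both carried Kbz over the start. ABCA2, a transporter of late endosomes and lysosomes linked to sterol traffic, lies on chromosome 9 and had 1 control Kac peak against 4 after SB. The 3 Kac peaks seen only after SB had percentiles of 14.4 to 48.6 and were short, from 436 to 739 bp. Its Kbz peak, from -889 to 789 bp, had a fold of 2.99, the lowest percentile of the 17 Kbz peaks (15.2) and a −log10 q of 1.86. It also covered the start of the long non-coding gene LINC02908. With 116.1 CpG per kb it was the most CpG-rich of the 17 Kbz peaks.

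ABCA3 loads surfactant lipids into the lamellar bodies of lung alveolar cells and lies on chromosome 16. It had 5 Kac peaks in control, 6 after SB and 2 of Kbz. Over its start the percentiles were high in all lists, 89.3 for control Kac, 93.3 for Kac after SB and 80.2 for Kbz, and the Kbz peak, from -674 to 1594 bp, also covered the start of the pseudogene ABCA17P. A second, short Kbz peak of 357 bp lay in an intron 43585 bp from the start, inside an SB Kac peak (percentile 57.8) that overlapped no control Kac peak. The longest Kac peaks of the window, 4084 bp in control and 4406 bp after SB, lay beyond the gene's end over the start of RNPS1.

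ABCG1 carried its marks inside the gene. It passes cholesterol to high-density lipoprotein and lies on chromosome 21. It had 7 Kac peaks in control, 5 after SB and 2 of Kbz. The Kac peaks nearest to the canonical start began 236 bp (control) and 255 bp (SB) downstream of it. The Kbz peaks lay in introns, from 14438 to 16369 bp (percentile 39.9) and from 42142 to 42870 bp (35.5), and each was wholly inside a Kac peak in both conditions. A control Kac peak 46230 bp into the gene, with a percentile of 76.7, was the highest-ranked control Kac peak of the 10 genes that overlapped no SB Kac peak.

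Among the efflux pumps, ABCC1 and ABCG2 carried all marks over the start. ABCC1, which exports glutathione conjugates, lies on chromosome 16 with 194.1 kb of gene body. Over its start the percentiles were 90.8 for control Kac, 90.3 for Kac after SB and 84.1 for Kbz, the last being the highest of the 5 Kbz peaks over a start. A second Kbz peak, 38693 bp into the gene, lay inside Kac peaks of both conditions. The third, of 280 bp in an intron 133935 bp from the start, overlapped no Kac peak in either condition. It was the only one of the 17 Kbz peaks without SB Kac, with a fold of 3.14 and a percentile of 21.4.

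ABCG2, the breast cancer resistance protein and a urate transporter, lies on chromosome 4. It had 4 Kac peaks in control, 4 after SB and 1 of Kbz. The Kac peak over the start had a fold of 4.43 (percentile 86.6) in control and 6.38 (97.2) after SB, the highest percentile of a Kac peak over a start of the 10 genes. The Kbz peak there, from -774 to 432 bp, had a percentile of 62.9. About 50 kb downstream, control Kac peaks of 388 and 3851 bp lay where SB Kac formed a single peak of 6183 bp with no Kbz.

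ABCC2 had Kac over the start and Kbz upstream of it. ABCC2 carries bilirubin glucuronide into bile and lies on chromosome 10. A long Kac peak ran from -6590 to 1055 bp in control (percentile 79.4) and from -7710 to 238 bp after SB (87.5). The Kbz peak inside it, from -3214 to -1652 bp, ended before the start and ranked higher than any other Kbz peak of the 10 genes except that of ABCA7, with a fold of 5.74 and a percentile of 86.1. It was also the poorest in GC of the 17, at 44.2%. The second Kbz peak, 62920 bp into the gene (percentile 16.1), lay over the start of another ABCC2 transcript.

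ABCC3, the pump that returns conjugated bile acids and glucuronides to the blood, had the most peaks. It lies on chromosome 17 and had 11 Kac peaks in control, 11 after SB and 3 of Kbz. None lay over the canonical start. The Kbz peaks lay inside the gene, beginning 5805, 45630 and 49637 bp from the start, with percentiles of 39.7, 28.9 and 18.5. Upstream of the gene, an SB Kac peak of 11407 bp contained the place of a control Kac peak of 4345 bp, the percentile being 94.5 in control and 68.8 after SB. Control Kac covered 8356 bp of this SB peak, in part by control Kac beyond the window. The percentiles thus compare a longer SB peak with only a part of the control Kac there.

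ABCB1, the P-glycoprotein that pumps many drugs out of cells, had no Kbz of its own start. It lies on chromosome 7 with 210.3 kb of gene body. The Kac peak over its canonical start had a percentile of 86.0 in control and 82.2 after SB. Its only Kbz peak, from -28021 to -26992 bp, lay over the start of RUNDC3B, a gene that starts inside the ABCB1 locus, and had a percentile of 24.4. An intronic Kac peak about 25 kb downstream of the start stood out in control, with a fold of 6.46, rank 549 of 70326 and a percentile of 99.2. After SB the peak there was shorter, 1207 against 2924 bp, and had a fold of 2.45 and a percentile of 7.1.

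**Figure D4:**
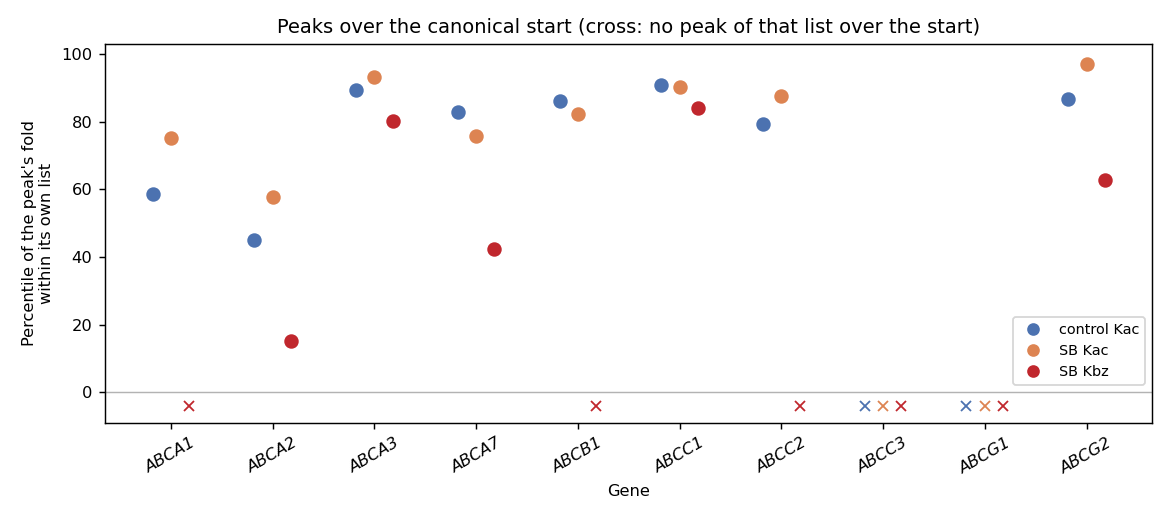
Percentile of the fold within its own list (y axis) of the peak over the canonical start of each gene, for control Kac (blue), SB Kac (orange) and SB Kbz (red), 1 library each. A cross marks a list with no peak over the start, and the red point lies below the orange point in all 5 genes that have both.

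Compared across genes, the percentile of the Kac peak over the canonical start was higher after SB than in control in 5 of 8 genes (ABCA1, ABCA2, ABCA3, ABCC2 and ABCG2). It was lower in the other 3, ABCA7, ABCB1 and ABCC1. The lowest values in both Kac lists were those of ABCA2, 45.0 in control and 57.7 after SB. The Kbz percentile was below the SB Kac percentile in 5 of 5 genes, and ABCA2 was again the lowest. Since Kbz and Kac percentiles refer to lists of different length, this gives the place of each peak in its list and not a difference in amount.

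The overlap of the lists at these genes was near that of the whole lists. Of the 51 control Kac peaks 36 overlapped an SB Kac peak, or 70.6% (95% interval 57 to 81.3), against 64.7% of all control Kac peaks. Of the 53 SB Kac peaks 35 overlapped a control Kac peak, or 66% (52.6 to 77.3), against 72.5% of all. The interval held the value of the whole list in both directions. The peaks without a counterpart were weaker and shorter. The 15 control Kac peaks without SB Kac had a median percentile of 14.2 and a median length of 712 bp, against 66.7 and 1803 bp for the 36 others. The 18 SB Kac peaks without control Kac had a median percentile of 23.2 and a median length of 642 bp, against 67.9 and 1935 bp. Short peaks have less room for an overlap, and the part of length was not tested. The same medians over the whole lists were not computed, so this is not shown to be particular to these genes.

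Kbz lay almost wholly within Kac at these genes. SB Kac was overlapped by 16 of these 17 Kbz peaks, or 94.1% (73 to 99), against 93.7% of all Kbz peaks, and control Kac by 15 of them, or 88.2% (65.7 to 96.7), against 93.3%. Of the Kbz bases 95.2% lay in SB Kac, against 93.6% over the whole list, and 13 of the 17 peaks were entirely inside one. In the other direction 18 of the 53 SB Kac peaks overlapped Kbz, or 34% (22.7 to 47.4), against 33.8%. These 18 had a median percentile of 71.7 and a median length of 3066 bp, and the 35 without Kbz had 38.2 and 763 bp. A longer peak has more room for an overlap, and the part of length in this difference was not tested.

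The share of peaks within 3 kb of a transcript start of any gene was 64.7% (33 of 51, 51 to 76.4) in control Kac, against 41.7% of all peaks. It was 58.5% (31 of 53, 45.1 to 70.7) in SB Kac, against 44%, and 64.7% (11 of 17, 41.3 to 82.7) in SB Kbz, against 64%. The 2 Kac shares lay above those of the whole lists and the Kbz share did not. The whole lists also hold peaks far from any gene, and the part of this in the difference was not tested. Genes also contributed unevenly. Of the control Kac peaks, 6 of 6 in ABCA7 and 8 of 11 in ABCC3 lay within 3 kb of a start of the gene itself. In ABCA1 it was 1 of 6. After SB the counts were 5 of 5, 7 of 11 and 1 of 6. The intervals treat peaks of 1 gene as independent, and the shares without ABCA7 and ABCC3 were not computed. Among the 17 Kbz peaks, 10 lay within 3 kb of a start of the gene itself and 1, at RUNDC3B, within 3 kb of another gene's start only.

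Over a wider stretch, CpG content followed the pattern of the printed sequences only in part, since ABCA7 fell below ABCA1 and ABCB1. In the 1 kb around the canonical start, the ratio of observed to expected CpG was 1.00 in ABCA2, 0.91 in ABCA3, 0.87 in ABCG2 and 0.85 in ABCC1, and all 4 starts lay under Kbz. It was 0.75 in ABCA1, 0.74 in ABCB1 and ABCG1, 0.73 in ABCC3, 0.62 in ABCA7 and 0.16 in ABCC2, and of these 6 only ABCA7 had Kbz over the start. The median over 20007 genes was 0.72. Over all genes Kbz lay over 60.1% of starts with a ratio of at least 0.8 and over 64.7% of those from 0.6 to 0.8, so the order seen among the 9 genes above 0.6 was not that of the genome. Below 0.4, the class of ABCC2, the share was 5.9%, against 17.9% for SB Kac.

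The 17 Kbz peaks had a median GC content of 59.4% and 37.0 CpG per kb, against 54.6% and 33.8 in the whole Kbz list. The 5 Kbz peaks over a canonical start held from 52.8 CpG per kb in ABCA7 to 116.1 in ABCA2. Peaks elsewhere in the windows ranged widely, and the lowest was the peak 38693 bp into ABCC1. Others had 17.0 per kb in ABCC3, 19.6 in the intron of ABCA3 and 28.2 over the other ABCC2 start. The intragenic peak of ABCA7 had 46.4 and a peak in an intron of ABCG1 had 51.8. The highest was the peak of the ABCB1 window over the start of RUNDC3B, with 94.2. It lay above the start peaks of ABCA7, ABCC1 and ABCG2 and below those of ABCA2 and ABCA3, so the ranges overlapped. SB Kac peaks of the 10 genes that overlapped Kbz had a median of 28.6 CpG per kb against 18.2 for those that did not. In the whole SB Kac list these medians were 30.7 and 11.7.

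Peaks near the edge of the window show how the 5 kb rule counted. The peak nearest to the edge on the inside was the control Kac peak upstream of ABCC3, 4988 bp from the gene body with a percentile of 94.5. On the outside, a Kbz peak lay 5768 bp from ABCA3 (percentile 8.5), an SB Kac peak 5775 bp from ABCA2 (35.9) and a Kbz peak 7738 bp from ABCC3 (93.7). The last of these lay at the long SB Kac peak that reaches into the ABCC3 window.

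The rest of the family comprised 38 protein-coding genes, which with the 10 make 48. Kac lay in the window of 35 of these 38 genes in control and of 31 after SB, and Kbz in that of 31, and peaks lay within 3 kb of a start in 30, 28 and 27. The 3 genes with no peak in any list were ABCA6, ABCA9 and ABCC6. Of the 31 with SB Kac in the window, 0 had no Kbz there, and among the 10 genes ABCA1 was the 1 such gene. Over all genes with SB Kac in the window 11.8% had no Kbz there. The highest Kbz percentiles were those of ABCA5 (fold 11.64, percentile 99.9), TAP2 (9.04, 99.3) and ABCE1 (6.84, 94.5), each over the canonical start, unlike the ABCA7 peak. TAP2 is a subunit of the peptide transporter of antigen presentation, and ABCE1 recycles ribosomes.

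Marks at promoters were counted by gene group, beside shares over all genes of 76.6% for Kac in control, 75.7% for Kac after SB and 64.7% for Kbz. The soluble members ABCE1, ABCF1, ABCF2 and ABCF3, which transport nothing, had all 3 marks at 4 of 4 promoters. Of the 12 genes of subfamily A, 7 had control Kac, 6 SB Kac and 5 Kbz at the promoter, the latter being ABCA2, ABCA3, ABCA4, ABCA5 and ABCA7. Of the 9 liver transporters, 7 had control Kac, 6 SB Kac and 6 Kbz at the promoter. ABCB11, the bile salt export pump, had only control Kac at the promoter. Its window held 5 control Kac peaks, 2 SB Kac peaks and 1 Kbz peak. SB Kac peaks without control Kac were highest in CFTR (percentile 63.2), ABCG4 (61.9) and ABCC8 (53.7). Control Kac peaks without SB Kac were highest in ABCC12 (70.4), ABCA8 (67.4) and ABCA10 (66.1).

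Of 13 regulators known to act on these genes, 10 had control Kac at the promoter, 12 SB Kac and 10 Kbz, beside the shares over all genes given above. Within the gene body plus 5 kb, 13, 12 and 11 of the 13 had a peak. NR1H2 and NR1H3, the liver X receptors that induce ABCA1 and ABCG1, had all 3 marks there. NR1I2 (PXR) and NR1I3 (CAR), which induce ABCB1 and ABCC2, had SB Kac but neither control Kac nor Kbz at the promoter, and NR1H4 (FXR) had none there. All 3 had a control Kac peak elsewhere in the window.

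Marker genes gave a mixed check of the cell line. Over all protein-coding genes 76.6% had control Kac at the promoter, 75.7% SB Kac and 64.7% Kbz. A marked promoter alone therefore says little about cell type. Of 16 liver genes 10 had control Kac at the promoter, 11 SB Kac and 4 Kbz, and ALB, APOB, FGB, FOXA2 and SERPINA1 had no Kac there in either condition. Of 8 kidney development genes 7 had control Kac, 7 SB Kac and 6 Kbz. Of 6 neuronal genes 3, 4 and 3 had these marks, and of 6 blood genes 3, 3 and 3. The defining liver genes ALB and SERPINA1 thus had no promoter peak of any list under the HepG2 label. Kidney development genes such as PAX2 and LHX1 had promoter peaks, but the counts of that small set lay near the shares over all genes. The part of this in the results on the 10 genes was not tested.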

How the data were processed

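HepG2 chromatin, from control cells and cells given 10 mM SB for 24 h, was examined with 1 library per group. The authors digested it with micrococcal nuclease, aligned single reads with Bowtie2 2.2.6 to hg38, kept unique reads, removed duplicates with SAMtools 0.1.19 and called peaks per library with MACS2 2.1.1 at an FDR of 0.01. The deposited lists are in broad format, and the broad setting and background track are not given in the sources used here. The authors' peak caller made the deposited fold, a linear ratio of read density in the peak over background, and the deposited −log10 p and −log10 q, all averaged over the peak. The lowest deposited −log10 q was 1.31 in each list, so weaker peaks than the stated FDR are included. The percentage of peaks at 2 or above was 81.4 (control Kac), 75.2 (SB Kac) and 88.6 (SB Kbz).

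The chromosome names fitted hg38 and 0 peaks ran past a chromosome end. Control Kac peaks on other sequences, 3 in all, were left out. Genes came from GENCODE 44, and promoters were 3 kb on either side of any transcript start. The members and the gene lists were chosen with earlier results of these data known. All 10 members are named, and of the other family genes the 3 highest by percentile for Kbz, for SB Kac without control Kac and for control Kac without SB Kac. A further list of other family genes is not reported here. Genes of at least 20 kb as a background were added after seeing the data. No test between groups was made, since there was 1 library per group. Alternatives were thresholds on −log10 q, the 15000 strongest peaks, other flanks, promoters and overlaps. In a check of the overlap code, 1000 of 1000 queries planted on control Kac peaks were found. Between the deposited lists, 0 of 12 overlap counts differed from bedtools 2.31.1. Calculations used Python 3.11.15, numpy 2.4.6, pandas 2.3.3, scipy 1.17.1 and matplotlib 3.10.9.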

Additional observations from a re-analysis of the deposited data

How the results depend on the processing

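Of 89 alternative values of 17 results, 67 stayed within 1.5 times a count or within the interval of a share, and 22 moved. With peaks of −log10 q of at least 5, the windows held 14 Kac peaks in control, 13 after SB and 6 of Kbz, and the share at promoters was 92.3% in SB Kac and 83.3% in Kbz. With the 15000 strongest peaks of each list they held 11, 7 and 8 peaks, 6 genes had SB Kac, and 22 other family genes had control Kac. In that setting 100% of SB Kac peaks overlapped control Kac and 100% lay at promoters, 62.5% of Kbz peaks overlapped SB Kac, and 71.4% of SB Kac peaks overlapped Kbz. With −log10 q of at least 2, 79.5% of SB Kac peaks overlapped control Kac. When 50% of a peak had to be covered, 56.9% of control Kac peaks overlapped SB Kac and 17% of SB Kac peaks overlapped Kbz. Promoters of 1 kb held 47.1% of control Kac and 43.4% of SB Kac peaks. Promoters drawn around canonical starts only, 3 kb on either side, held 41.2% of control Kac, 37.7% of SB Kac and 41.2% of Kbz peaks. The Kbz peak of ABCA2 was lost at −log10 q of at least 2, and those of ABCB1 and ABCC3 at 5 and among the strongest 15000. No paired analysis was possible because the labels give no replicate numbers and 1 library per group, and for the same reason no replicate could be left out. Depth is unknown, so numbers of peaks cannot be compared between lists as amounts of mark.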
